A study of Mus musculus with 24 samples.

Results

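Interferon-stimulated genes are the genes that a cell switches on after interferon binds its receptors, and 34 of them were followed here in mouse liver. They were taken from a list of genes induced by type I or type II interferon, and every array probe whose accession maps to a listed symbol was used. These were 49 probes among the 41174 probes of the array that are not controls, and all 34 genes were among the 17856 genes with a probe above the brightness filter. Of the 34 genes, 11 had more than 1 probe, and each of these was read by its brightest probe.

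The samples are livers of male C57BL/6N mice, an inbred strain, in 6 groups. Pair-fed mice, which had no ethanol, were sampled at 10 days (n = 3) or 8 weeks (n = 4). The ethanol diet groups were taken after 8 weeks of diet without a binge (n = 5), after 10 days with a single binge (n = 3), after 8 weeks with a single binge (n = 5), or after 8 weeks with binges 2 times per week (n = 4), called multiple binges below. A binge was 5 g of ethanol per kg. The labels give no age and do not say that the samples of a group came from separate animals, and the p-values here speak only to the spread seen among these samples, which may be technical. All groups share the strain, the sex and a Cy3-labelled reference RNA, named as a commercial mixture of mouse RNA although another label field calls it liver. The value of a gene is the log2 ratio of liver RNA (Cy5) to this reference (Cy3) on the same array, so 0 means equal signal and the ratios of different genes are not levels to be set against each other.

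Type I interferons signal through a receptor made of Ifnar1 and Ifnar2 to a complex that holds Stat2 and Irf9 and binds the interferon-stimulated response element in the promoters of their targets. Interferon-gamma uses its own receptor, acts through gamma-activated sites, and raises the immunoproteasome, the peptide transporter Tap1 and the guanylate-binding proteins. Among the targets are sensors of foreign RNA and DNA, factors such as Irf7 that strengthen the response, and proteins that block viral replication. In liver the response is known from viral hepatitis, and hepatocytes as well as immune and endothelial cells can mount it.

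The response element was searched by its core letters, GAAA, then any 2 bases, then GAAA again, on both strands, in RefSeq promoter windows of GRCm38.p6 that run 300 bases, mostly before the start of the gene. Of the 34 genes 27 had a window, and the others were Dhx58, Iigp1, Oas2, Parp14, Rtp4, Usp18 and Zbp1. The letters were in the windows of 15 of the 27 genes (55.6%), against 3.99% of all 27025 genes with a window. The letters TTCNNNGAA of the gamma-activated site, whose reverse strand reads the same, were in 7 of the 27 (25.9%) against 9.55%. A match is a description of the letters and not a proven site. The windows of Irf7, Psmb9 and Tap1 held neither, and that of Psmb8 held only the second, 97 bases before the start (position -97, counted from 0 at the first transcribed base). Psmb9 and Tap1 start on opposite strands of chromosome 17 and their windows, chr17:34187281-34187580 and chr17:34187306-34187605, overlap.

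The windows below belong to the 4 genes with the lowest adjusted p-values among those that are described array by array and hold the first set of letters. They are written 5′ to 3′ on the strand of the gene, with every base of a match in capitals. They are Isg15 at chr4:156200769-156201068 (minus strand), Gbp3 at chr3:142559794-142560093 (plus strand), Bst2 at chr8:71537423-71537722 (minus strand) and Rsad2 at chr12:26456403-26456702 (minus strand).
Isg15: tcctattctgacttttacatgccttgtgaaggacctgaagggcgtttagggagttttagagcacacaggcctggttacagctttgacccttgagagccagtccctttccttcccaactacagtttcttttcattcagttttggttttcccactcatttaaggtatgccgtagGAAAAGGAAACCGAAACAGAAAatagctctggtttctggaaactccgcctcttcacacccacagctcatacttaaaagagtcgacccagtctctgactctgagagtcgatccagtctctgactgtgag
Gbp3: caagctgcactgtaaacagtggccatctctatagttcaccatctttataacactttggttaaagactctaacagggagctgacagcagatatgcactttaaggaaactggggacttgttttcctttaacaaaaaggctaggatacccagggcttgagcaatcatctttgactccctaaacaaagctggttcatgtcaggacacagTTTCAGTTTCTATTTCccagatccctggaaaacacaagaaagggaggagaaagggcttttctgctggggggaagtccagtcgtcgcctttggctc
Bst2: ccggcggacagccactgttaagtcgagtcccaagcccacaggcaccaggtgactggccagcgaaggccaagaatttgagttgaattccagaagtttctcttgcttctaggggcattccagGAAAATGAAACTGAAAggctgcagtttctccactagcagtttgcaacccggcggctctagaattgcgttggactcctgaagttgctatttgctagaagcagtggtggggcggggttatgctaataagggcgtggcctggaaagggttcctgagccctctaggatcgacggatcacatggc
Rsad2: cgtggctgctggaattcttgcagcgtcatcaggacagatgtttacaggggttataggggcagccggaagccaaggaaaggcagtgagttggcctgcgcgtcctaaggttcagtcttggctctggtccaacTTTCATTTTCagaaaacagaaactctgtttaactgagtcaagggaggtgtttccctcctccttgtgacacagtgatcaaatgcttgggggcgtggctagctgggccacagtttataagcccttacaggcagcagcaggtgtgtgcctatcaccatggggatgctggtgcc
In Isg15, which encodes a ubiquitin-like modifier, 3 matches overlap in a single run that begins at position -78. In Gbp3, a guanylate-binding GTPase with another window that holds no match, 2 matches lie on the reverse strand and the first begins at position -45. Bst2, which tethers budding virions to the cell surface, holds 2 overlapping matches from position -130, and 3 of their bases also belong to a match of TTCNNNGAA. Rsad2, the antiviral enzyme viperin, holds 1 match on the reverse strand at position -120. Isg15 and Gbp3 were lower after 8 weeks of ethanol with a single binge than in pair-fed livers. Bst2 was called higher at 10 days, and Rsad2 was called lower by its brightest probe in the comparisons with multiple binges.

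Most members gave a clear signal: 28 of the 34 were well above background in Cy5 on all 24 arrays, and Cmpk2, on 11 arrays, and Trim21, on 12, were the dimmest by that count. The arrays fall into scan groups that matter for every comparison. The pair-fed 8-week, ethanol 8-week and ethanol 8-week single-binge arrays lie on slides 1 to 5 and were scanned together (scan 1), and the 10-day arrays lie on slides 6 to 9 (scan 2). The multiple-binge arrays lie alone on slides 10 and 11 (scan 3), read on another scanner with a newer design file. So for multiple binges against any other group, and for 8-week against 10-day pair-fed livers, the scan and the group cannot be told apart. Cy3 intensities of the shared reference correlated at a median r of 0.983 between arrays of scan 1 and of 0.912 between scans 1 and 3. The 7 hepatocyte markers measured, among them Alb and Ttr, were well above background on all 24 arrays. Slide 5 holds the 2 arrays with the narrowest spread of log ratios, pair-fed 8-week replicate 1 (interquartile range 0.23 over all genes) and single-binge replicate 4 (0.13), and counts are given without it where they change.

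Over the 23 members measured on every array, the median log2 ratio was lowest in the 8-week single-binge group. It was -0.21, 0.0064, -0.22, -0.093 and -0.22 on that group's 5 arrays, and 0.41, 0.039, 0.092 and 0.073 on the 4 pair-fed 8-week arrays. The 2 groups did not overlap. Pair-fed 8-week replicate 1 stood above the other 3, and it was the highest of its group for 18 of the 31 members measured on it. Multiple-binge arrays gave -0.029, 0.28, -0.054 and 0.36, so replicates 2 and 4 lay well above replicates 1 and 3. The ethanol 8-week arrays lay between -0.094 and 0.098, the pair-fed 10-day arrays between -0.10 and 0.10, and the 10-day binge arrays between -0.059 and 0.013. The median over all genes was within -0.036 to 0.0025 on every array.

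**Figure D1:**
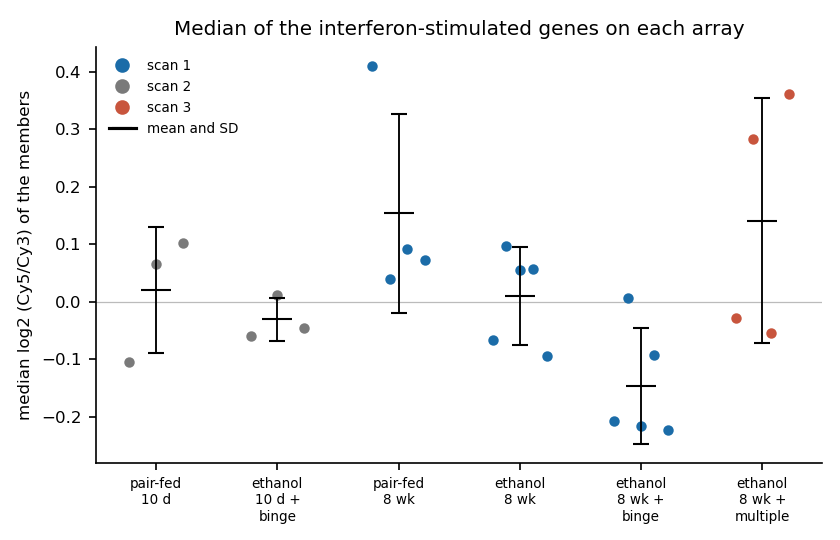
Median log2 ratio of Cy5 over Cy3 of the 23 members measured on every array, 1 point per array, by group, with points coloured by scan and black bars for the mean and SD. The 5 single-binge arrays of the 8-week diet lie at or below 0.0064 and the 4 pair-fed 8-week arrays at or above 0.039.

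The comparison of 8 weeks of ethanol with a single binge against pair-fed livers of the same diet length held most of the lower values. Of 33 members tested, 9 were lower and 0 higher (limma, adjusted p under 0.05), which is 27.3%, where 15.5% of all 17419 genes passed, 7.03% higher and 8.46% lower. The median difference of the members was -0.32, against 0.024 for all genes, and 28 of the 33 had a negative difference. The 9 were Irf7 and Stat2 among the transcription factors, Psmb8 and Psmb9 of the immunoproteasome, the GTPase Gbp3, the sensor Ddx58, the modifier Isg15, the antiviral protein Ifit3 and Rtp4, a chaperone of receptors that also restrains viruses.

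Irf7, the factor that amplifies type I interferon production, had the lowest adjusted p. Its log2 ratio was 0.78, 0.26, 0.18 and -0.12 in the pair-fed 8-week livers and -0.53, -0.50, -0.74, -0.73 and -0.95 after ethanol with a binge. Every binge array lay below every pair-fed array. The difference was -0.96 ± 0.15 (SE), 1.95-fold lower, with an adjusted p of 6.94e-05 in limma. Stat2, a part of the type I interferon complex, was at 0.40, 0.22, 0.35 and 0.11 in pair-fed livers and at -0.12, -0.63, -0.46, -0.17 and 0.26 after the binge. The last of these arrays overlapped the pair-fed values, and the difference was -0.49 ± 0.16 (adjusted p = 0.0394 in limma). Irf9, the DNA-binding part of the same complex, differed by -0.37 ± 0.14 and did not pass (adjusted p = 0.0850). Irf1, the factor most tied to interferon-gamma, had ratios from -0.54 to -0.15 in pair-fed livers and from -0.63 to -0.12 after the binge by its brightest probe (difference -0.025 ± 0.12). Its other probe gave -0.49 and passed in a fit of all probes (adjusted p = 0.0162), so the probes of Irf1 disagree.

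The immunoproteasome subunits Psmb8 and Psmb9, which replace standard subunits when peptides are cut for MHC class I, were both lower. Psmb8 was at 0.72, 0.12, -0.019 and -0.036 in pair-fed 8-week livers and at -0.60, -0.61, -0.52, -0.76 and -0.69 after 8 weeks with a binge, where its SD was 0.092. The groups did not overlap, and the difference was -0.83 ± 0.14 (1.78-fold lower, adjusted p = 0.000161 in limma). Its second probe gave -0.76 and passed too. Psmb9 was at 1.06, 0.13, 0.19 and 0.39 in pair-fed livers and at -0.82, -0.28, -0.31, -1.30 and -0.999 after the binge. All binge arrays again lay lower, by -1.18 ± 0.21 on average (2.27-fold, adjusted p = 0.000442). Tap1, the peptide transporter whose promoter window overlaps that of Psmb9, had a difference of -0.47 ± 0.18 and did not pass (adjusted p = 0.0859).

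Gbp3 was at 0.99, -0.098, 0.32 and 0.44 in the pair-fed livers and at -0.56, -0.10, -0.50, -0.42 and -0.48 after the binge, a difference of -0.83 ± 0.16 (adjusted p = 0.000922 in limma). Of the 5 GTPases it alone passed, and Igtp, with a difference of -0.94 ± 0.32 that rested on a wide spread (1.39, -0.47, 0.17 and 0.46 in pair-fed livers), did not (adjusted p = 0.0521). Rtp4 differed by -0.93 ± 0.21 (adjusted p = 0.00336), Isg15 by -0.65 ± 0.18 (0.0160), Ddx58, the RNA sensor RIG-I, by -0.54 ± 0.15 (0.0149) and Ifit3 by -0.59 ± 0.20 (0.0492). The 3 other probes of Ddx58 gave -0.29 to -0.16 and did not pass. Isg15 overlapped between the groups, with 0.81, -0.13, 0.40 and 0.072 in pair-fed livers against 0.032, -0.15, -0.35, -0.75 and -0.58. None of the 4 OAS genes, which make or resemble the enzymes that activate RNase L, passed, and their differences ran from -0.33 for Oas1a to 0.080 for Oas2. Usp18, which removes Isg15 from proteins and dampens the receptor, went the other way at 0.30 ± 0.14 without passing (adjusted p = 0.159).

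**Figure D2:**
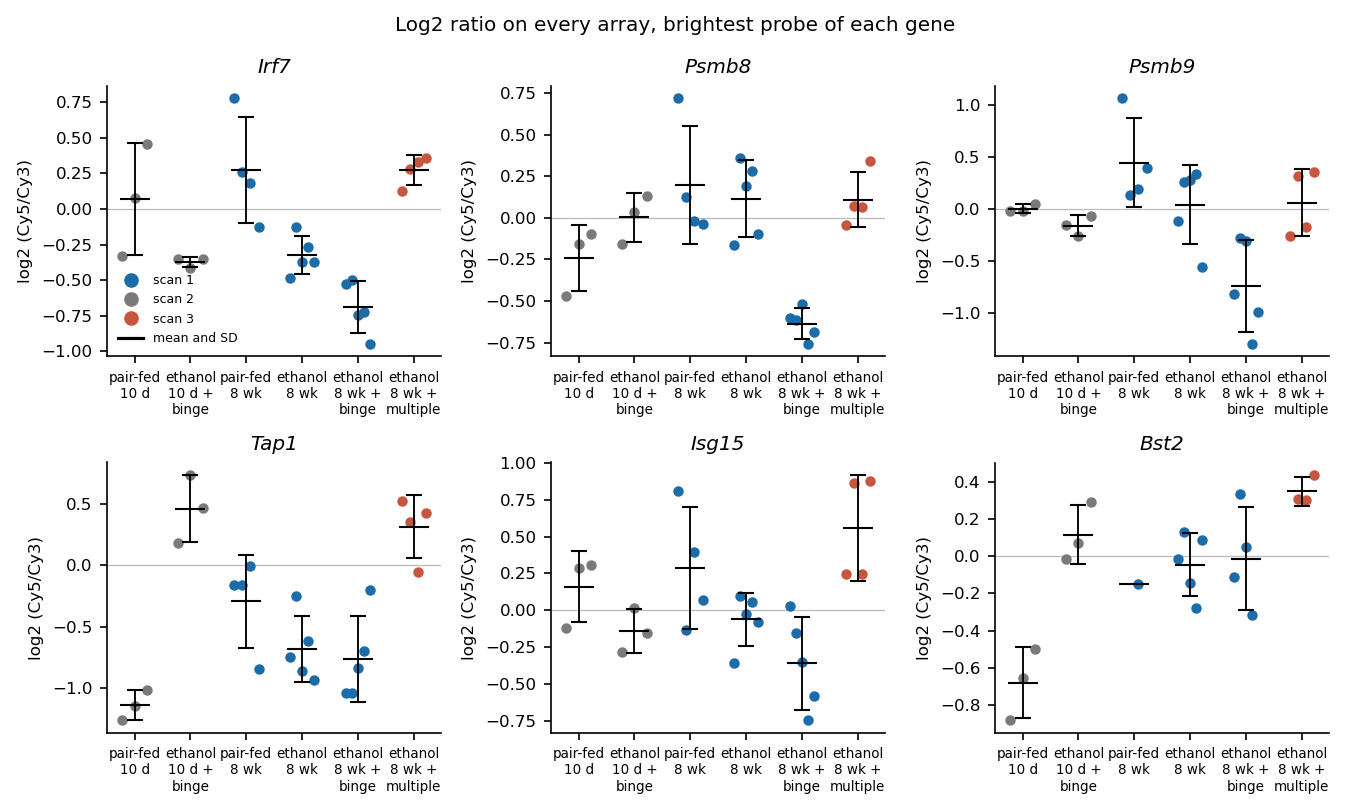
Log2 ratio of Cy5 over Cy3 on every array for 6 members, by group, with points coloured by scan and black bars for the mean and SD. All 5 single-binge values of Irf7, Psmb8 and Psmb9 on the 8-week diet lie below those of the pair-fed 8-week livers, and Tap1 and Bst2 stand apart at 10 days.

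Slides 1 to 5 hold these 8-week groups, and 4 of them carry both a single-binge and a pair-fed array. Within them the median difference of the members was -0.13, -0.29, -0.33 and -0.54 on slides 2, 3, 4 and 5. With slide as a block 6 members were called lower, and Isg15, Stat2 and Ifit3 were lost. Without pair-fed replicate 1, or without slide 5 as a whole, 5 members were called lower: Irf7, Psmb8, Psmb9, Gbp3 and Rtp4, and Usp18 was called higher in both fits. These 5 lower members kept their call in every alternative that was run, with a difference of -0.79 for Irf7 and -0.63 for Psmb8 without slide 5. Ifit3 lost its call in 16 of 24 alternatives, Stat2 in 12, Isg15 in 7 and Ddx58 in 4.

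Cell type markers moved in the same comparison, and in bulk liver fewer cells of a type and less RNA per cell cannot be told apart. Of 6 markers of Kupffer cells and macrophages, Adgre1 (-0.68 ± 0.17) and Cd5l (-0.77 ± 0.15) were lower, and the mean over the 5 markers measured on every array ran from -0.20 to 0.59 on the pair-fed arrays and from -0.25 to 0.26 on the binge arrays. Of 6 endothelial markers, Clec4g, Kdr and Fcgr2b were lower and Lyve1 higher, with a mean over the 5 measured on every array of -0.26 to -0.070 against -0.41 to 0.15. The neutrophil markers S100a8 and S100a9 were higher, 2 of 4 tested, with a mean over the 3 measured on every array of -0.61 to -0.32 against -0.44 to 0.66. Among T and NK cell markers 0 of 9 passed in limma, and 1 had an unadjusted p under 0.05. Ccr9, 1 of 3 plasmacytoid dendritic cell markers tested, was lower (-0.41 ± 0.10). The other 2 had positive differences, 1 of them at an unadjusted p under 0.05 (limma), and the median of the 3 was 0.10. Of 5 hepatocyte markers tested, the enzyme Cyp2e1 was lower (-0.57 ± 0.18). Their part in the lower values of the members was not tested.

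Adding a single binge to 8 weeks of ethanol also gave lower values of the immunoproteasome genes Psmb8 and Psmb9. Of 34 members 4 were lower and 0 higher (limma), which is 11.8%, where 15.6% of all genes passed, 7.52% higher and 8.13% lower. The share of members called was below that of all genes. Psmb8 was at -0.16, 0.36, 0.19, 0.28 and -0.094 without the binge and differed by -0.75 ± 0.13 (1.68-fold lower, adjusted p = 0.000231). No array overlapped between these groups, and on all 5 slides the binge array was the lower one. Psmb9 stood at -0.12, 0.26, 0.28, 0.33 and -0.56 without the binge and differed by -0.78 ± 0.20 (adjusted p = 0.00884). Its ethanol-only replicate 5 overlapped the binge values. Ifit3, which blocks translation of foreign RNA with its relatives Ifit1 and Ifit2, was at 0.30, 0.55, 0.63, 0.49 and 0.13 without and at -0.58, 0.27, -0.41, -0.39 and -0.68 with the binge. It differed by -0.78 ± 0.19 (1.72-fold lower, adjusted p = 0.00597) and was lower on all 5 slides. Rtp4 was the fourth, at -0.63 ± 0.20 (adjusted p = 0.0313), and it lost its call with slide as a block (adjusted p = 0.0590). Irf7 differed by -0.37 ± 0.14 and Ddx58 by -0.39 ± 0.14, and neither passed (adjusted p = 0.0766 and 0.0652 in limma). Both were lower on all 5 slides and passed with slide as a block (adjusted p = 0.0496 and 0.0200). Of 6 endothelial markers 2 were higher (Lyve1 at 2.44 and Pecam1 at 0.32) and 3 lower (Clec4g at -0.87, Kdr at -0.86 and Fcgr2b at -0.52). Of 4 neutrophil markers S100a8 and S100a9 were higher and Csf3r lower (-0.74), and of 6 hepatocyte markers Tat (1.34) and Fga (1.77) were higher and Cyp2e1 lower (-0.79). Cd5l, of 7 Kupffer cell markers, and Ccr9, of 3 plasmacytoid dendritic cell markers, were lower, and the part of these cells in the result was not tested. Within slides 1 to 5 the median difference of the members was -0.16, -0.22, -0.26, -0.30 and -0.071.

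**Figure D3:**
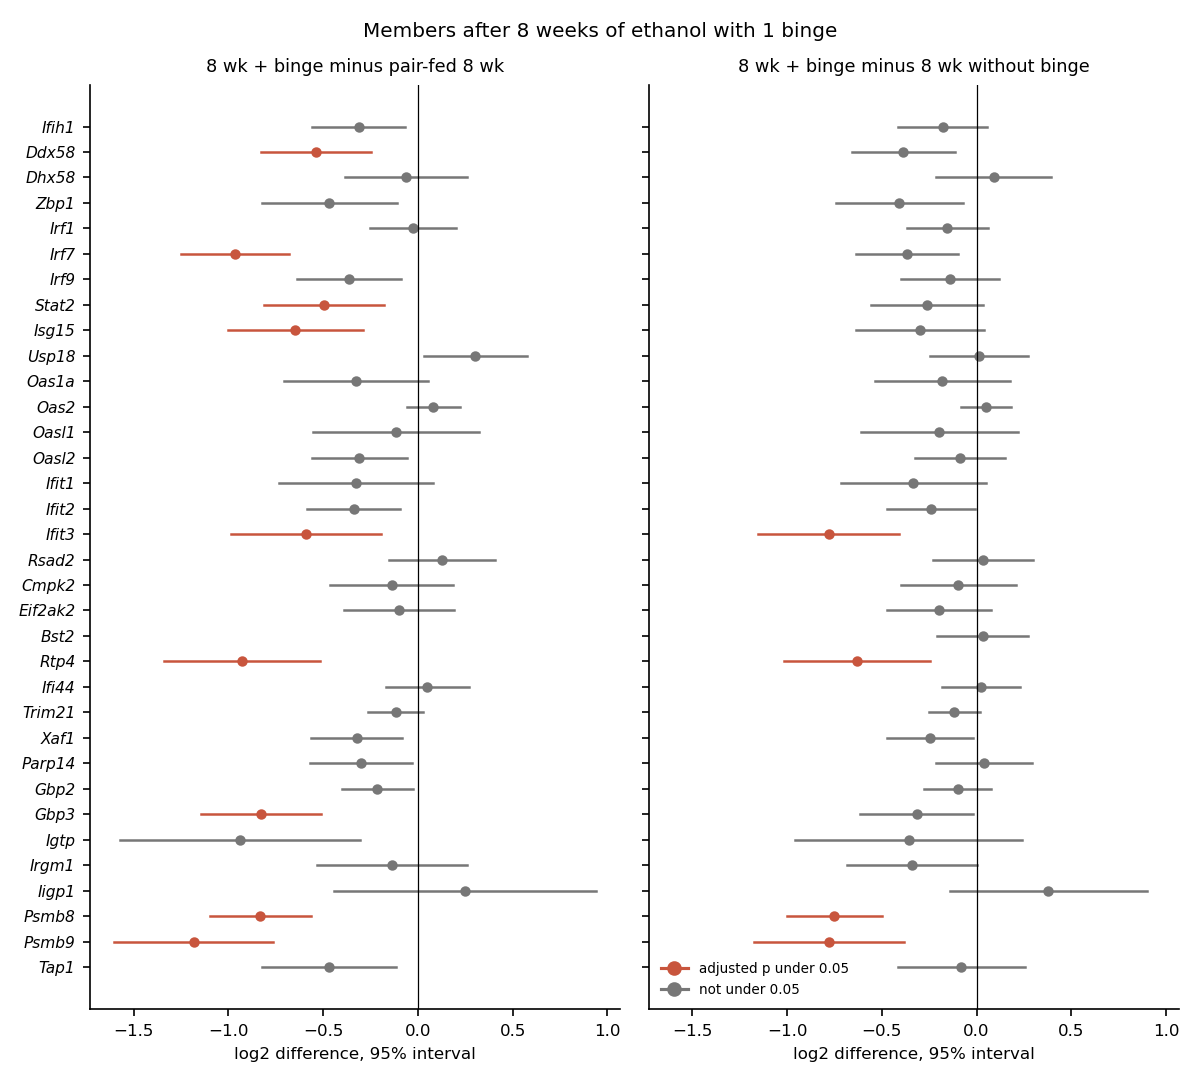
Log2 differences with 95% intervals of the members for 8 weeks of ethanol with a single binge against pair-fed 8-week livers (left) and against 8 weeks of ethanol without a binge (right), with red for an adjusted p under 0.05. The 9 red genes on the left and the 4 on the right lie below 0; Bst2 has no point on the left because it was measured on 1 pair-fed array.

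Without a binge, 8 weeks of ethanol left no member called against pair-fed livers. The limma fit called 0 of 33, with 5 at an unadjusted p under 0.05, where 0.138% of all genes passed (0.0576% higher, 0.0806% lower) and 7.11% had an unadjusted p under 0.05. Irf7 came closest, at -0.48, -0.13, -0.37, -0.27 and -0.37 in ethanol-fed livers, a difference of -0.60 ± 0.15 (adjusted p = 0.116). No array overlapped, though ethanol-fed replicate 2 lay just below the lowest pair-fed array, at -0.12. Irf7 was lower on all 4 slides that hold both groups, and the call was made without pair-fed replicate 4 and with array weights. Gbp3 followed at -0.22, 0.13, 0.0041, 0.10 and -0.49, a difference of -0.51 ± 0.16 (adjusted p = 0.323). The median of the members was -0.12, and it was 0.011 without slide 5. The comparisons with pair-fed and with ethanol-only livers share arrays with each other, so each is given by its own values.

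At 10 days the members called in the binge group were Tap1 and Bst2. Of 33 tested, 2 were higher and 0 lower (limma), which is 6.06%, where 6.94% of all genes passed, 4.15% higher and 2.79% lower. The share of members called was thus below that of all genes. Tap1, which carries peptides into the endoplasmic reticulum for MHC class I, was at -1.26, -1.14 and -1.01 in pair-fed livers and at 0.18, 0.73 and 0.46 after 10 days of ethanol and a binge. The groups were far apart, and the difference was 1.60 ± 0.22 (3.03-fold higher, adjusted p = 5.08e-05). In Cy5 alone it was 1.84, and the reference in Cy3 differed by 0.27. Bst2, the virion tether, was at -0.89, -0.66 and -0.50 in pair-fed livers and at -0.012, 0.073 and 0.29 after the binge. Again no array overlapped, and the difference was 0.80 ± 0.15 (1.74-fold higher, adjusted p = 0.00244). It missed the threshold with each array centred on its median and in the deposited values (highest adjusted p 0.0540). No other member was called. Isg15 was at -0.12, 0.29 and 0.31 in pair-fed and at -0.29, 0.014 and -0.15 in binge livers, and the median difference of the members was -0.11. Small differences can be missed with 3 arrays per group: in simulated data 44.8% of true log2 differences of 0.5 were called in this comparison. Of 6 endothelial markers Lyve1 (1.24 ± 0.29) and Clec4g (0.73 ± 0.17) were higher at 10 days, as was Ly6c2 (0.58 ± 0.15) of 3 monocyte markers. Of 8 T and NK cell markers Nkg7 was higher (0.75 ± 0.17), and 2 were lower at an unadjusted p under 0.05 (limma). Of 6 hepatocyte markers Fga (2.34 ± 0.57) and Ttr (0.84 ± 0.24) were higher, and 2 were lower at an unadjusted p under 0.05. The lowest hepatocyte difference was -1.21. No marker was called lower, and the part of these cells in the result was not tested. Irf7 differed by -0.44 ± 0.18 (adjusted p = 0.157) and was called lower without pair-fed replicate 1.

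The effect of ethanol with a binge against pair-fed livers differed between the 8-week and the 10-day diets in 3 of 32 members (limma, interaction), all lower, where 3.27% of all genes passed, 0.888% higher and 2.38% lower. Tap1 differed most, by -2.07 ± 0.29 (adjusted p = 8.95e-05), with 1.60 at 10 days and -0.47 at 8 weeks. Psmb8 differed by -1.08 ± 0.21 (adjusted p = 0.00410). It was at -0.47, -0.16 and -0.098 in pair-fed 10-day livers and at -0.16, 0.034 and 0.13 after 10 days with a binge, a difference of 0.24 ± 0.17 against -0.83 on the 8-week diet. Stat2 differed by -0.95 ± 0.25 (adjusted p = 0.0381), from -0.17, -0.22 and -0.18 in pair-fed and 0.0073, 0.39 and 0.41 in binge livers at 10 days, a difference of 0.46 ± 0.20 that did not pass by itself. With slide as a block only Tap1 kept its interaction call.

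The pair-fed livers themselves differed between 8 weeks and 10 days in 1 of 32 members, Tap1, where 1.62% of all genes passed, 1.15% higher and 0.464% lower. Its 8-week values of -0.16, -0.16, -0.0049 and -0.85 lay above all 10-day values, by 0.85 ± 0.21 (adjusted p = 0.0358 in limma). The reference channel differed by 0.85 and the liver channel by 1.65 between these scans. Leaving out any of 6 of the 7 arrays, all but pair-fed 8-week replicate 4, ended the call.

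**Figure D4:**
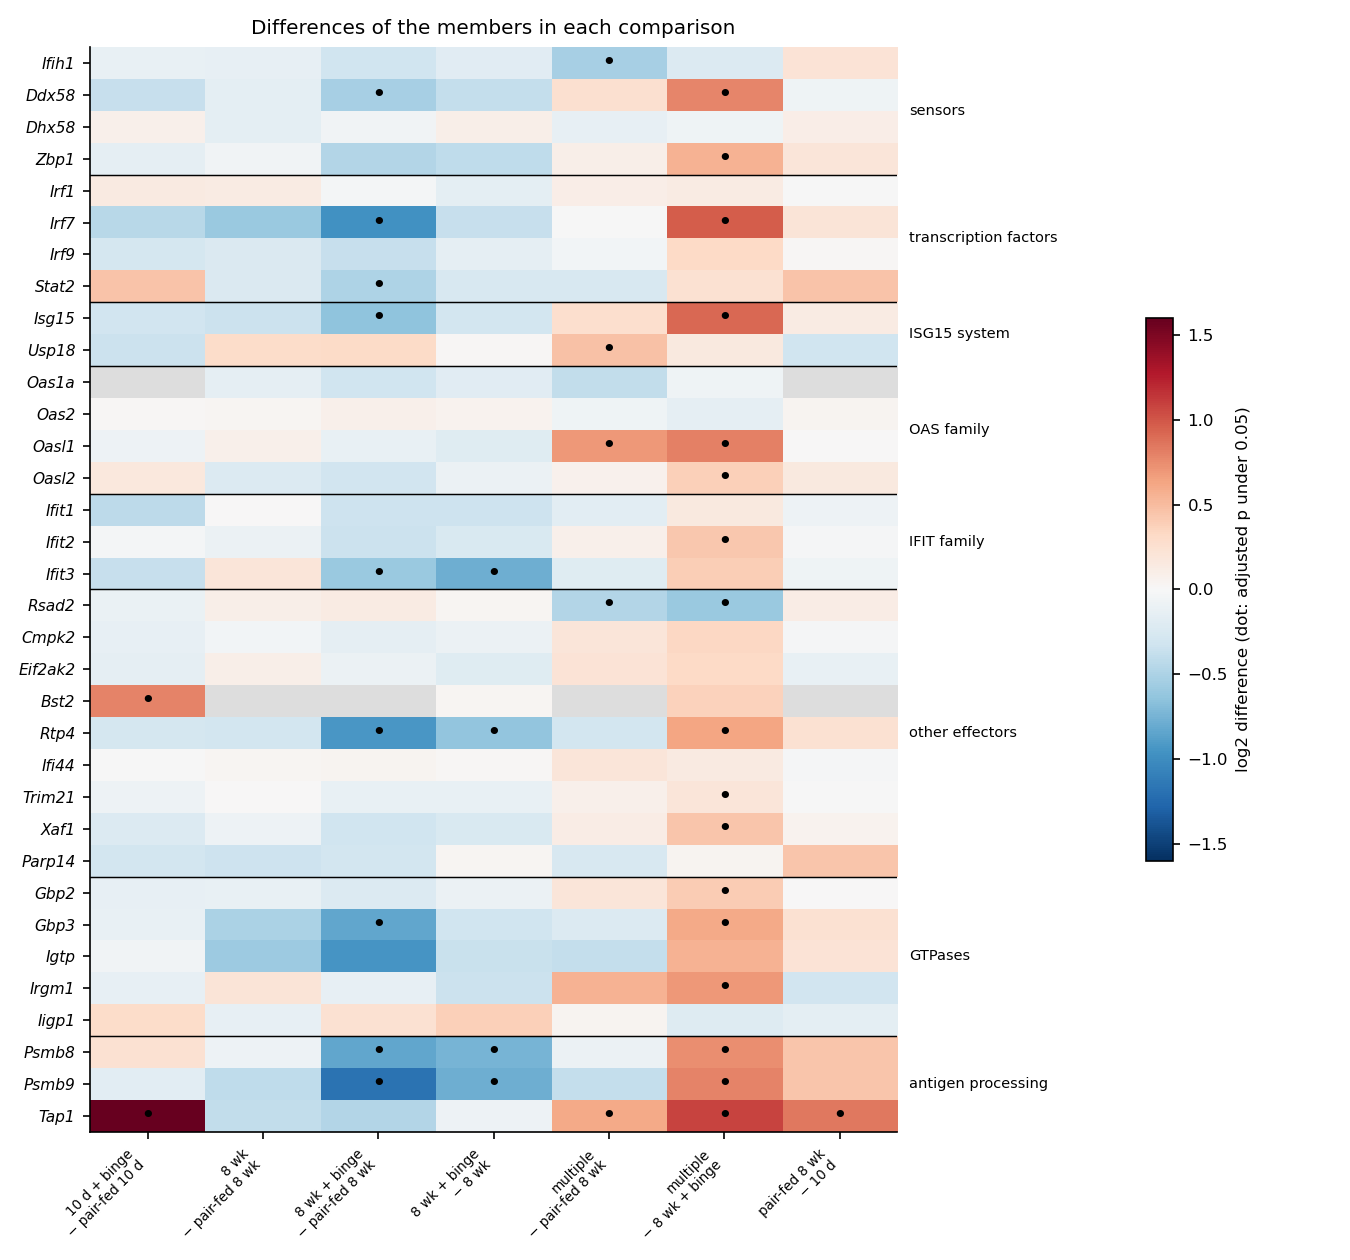
Log2 differences of the 34 members, ordered by role, in 7 comparisons, with red for higher and blue for lower in the first group named, grey where a gene could not be tested and a dot for an adjusted p under 0.05. The column of 8 weeks with a single binge against pair-fed holds 9 dots on blue, and the column of multiple against a single binge holds 16 dots on red and 1 on blue.

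Livers after multiple binges were compared with the single-binge livers of the same diet, and here 16 of 34 members were higher and 1 lower (limma), where 30.0% of all genes passed, 11.7% higher and 18.2% lower. The median difference was 0.37, against -0.016 for all genes. Irf7 was at 0.13, 0.28, 0.33 and 0.36 after multiple binges and differed by 0.96 ± 0.15 (1.95-fold higher, adjusted p = 6.64e-05). No array of the groups overlapped. Tap1 was at 0.53, 0.35, -0.054 and 0.43 against -1.04, -1.04, -0.84, -0.70 and -0.20 (1.08 ± 0.18, adjusted p = 0.000179). Psmb8 was at -0.046, 0.071, 0.063 and 0.34 (0.74 ± 0.14, adjusted p = 0.000380), and both genes stood above every single-binge array. Isg15, at 0.25, 0.86, 0.25 and 0.88, differed by 0.92 ± 0.18 (adjusted p = 0.000728). The other 12 higher members were Ddx58, Zbp1, Oasl1, Oasl2, Ifit2, Rtp4, Trim21, Xaf1, Gbp2, Gbp3, Irgm1 and Psmb9, with differences from 0.19 for Trim21 to 0.80 for Oasl1. Ddx58 and Irgm1 were measured on only 2 multiple-binge arrays (-0.051 and 0.70, -0.23 and 0.57), and Rtp4 on 3 (-0.46, -0.50 and 0.57). Second probes of Ifit2 (0.17) and Irgm1 (0.53) did not pass in a fit of all probes. The lower member was Rsad2, at -0.19, -0.16, -0.70 and -0.41 against 0.49, 0.46, 0.31, -0.068 and -0.007 after a single binge. Its brightest probe differed by -0.60 ± 0.14 (adjusted p = 0.00285 in limma over all probes). The other 2 probes of Rsad2 gave 0.29 and 0.43 and did not pass, and its brightest probe gave 0.53 in Cy5 alone. Trim21 lost its call in 13 of 23 alternatives, Rtp4 in 9 of 23 and Irgm1 in 9 of 21. This comparison shares its single-binge arrays with those above, in which these arrays were low.

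The scan cannot be separated from the group here, and the dyes taken alone differ by gene. Irf7 was higher by 0.76 in Cy5 alone with a Cy3 difference of -0.34, and Isg15 by 0.76 with a Cy3 difference of -0.31. For Tap1 the Cy5 difference was 0.30 and that of the reference -0.90, and for Psmb9 they were -0.0071 and -0.92. Zbp1, a sensor of Z-form nucleic acid, differed by -0.46 in Cy5 and -1.16 in Cy3, so both signals were lower and the ratio was higher. Among the 9 members lower after a single binge against pair-fed livers, which lie in the same scan, the Cy3 differences ran from -0.086 for Gbp3 to 0.058 for Rtp4. Leaving out multiple-binge replicate 4 reduced the count to 9 members called, as did centring each array on its median. Cell type markers went both ways. Of 9 T and NK cell markers Nkg7 was higher (1.09) and Klrb1c lower (-0.85), and of 7 Kupffer cell markers Cd5l was higher (0.70) and Csf1r lower (-0.49). Of 6 endothelial markers Clec4g and Kdr were higher and Lyve1 and Pecam1 lower, and of 5 neutrophil markers Csf3r was higher and Retnlg lower. Of 6 hepatocyte markers Alb and Cyp2e1 were higher, and 3 had negative differences. Of 4 B cell markers Cd79a was lower (-1.41), and 3 had positive differences, 1 of them at an unadjusted p under 0.05 (limma). Of 3 plasmacytoid dendritic cell markers Runx2 was lower, and 1 was higher at an unadjusted p under 0.05. The leukocyte gene Ptprc was lower (-0.28). Their part in the result was not tested.

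**Figure D5:**
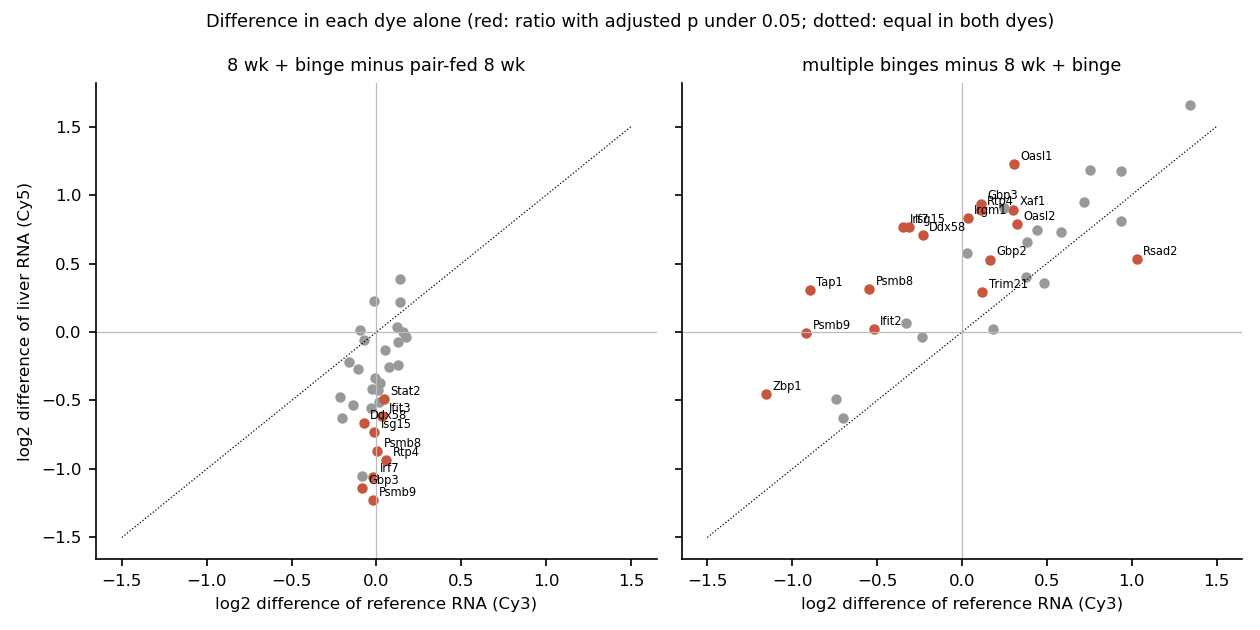
Difference of each member in the reference dye (Cy3, x axis) and the liver dye (Cy5, y axis), log2 scale, for a single binge on 8 weeks of ethanol against pair-fed livers (left) and multiple against a single binge (right). On the left the called genes in red lie near 0 on the x axis, and on the right Tap1 and Psmb9 lie at -0.90 and -0.92 on it, and Rsad2 at 1.03.

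Against pair-fed 8-week livers, multiple binges left 3 of 33 members higher and 2 lower (limma). That is 15.2%, where 20.8% of all genes passed, 7.50% higher and 13.3% lower. Tap1 was higher by 0.61 ± 0.19 (adjusted p = 0.0269), with 0.53, 0.35, -0.054 and 0.43 against -0.16, -0.16, -0.0049 and -0.85. In Cy5 alone it was lower, at -0.25, with a Cy3 difference of -0.93. Usp18 was at 0.38, -0.015, 0.22 and 0.18 against 0.20, -0.51, -0.49 and -0.29 (0.46 ± 0.15, adjusted p = 0.0276). Oasl1, an OAS relative that limits Irf7 translation, was at -0.068, 0.86, 0.12 and 1.03 against 0.33, -0.39, -0.32 and -0.44 (0.69 ± 0.24, adjusted p = 0.0403). Replicates 2 and 4 of the multiple-binge group were again the high ones for Oasl1, and pair-fed replicate 1 overlapped the group. Ifih1, the sensor of long double-stranded RNA known as MDA5, was at -0.21, 0.088, -0.11 and -0.0065 against 0.47, 0.52, 0.49 and 0.42 (-0.53 ± 0.13, adjusted p = 0.00681). Its groups did not overlap, yet in Cy5 alone it was higher by 0.55, with a Cy3 difference of 1.01. The second probe of Ifih1 gave -0.22 and did not pass in a fit of all probes. Rsad2 was at -0.19, -0.16, -0.70 and -0.41 against 0.17, 0.18, 0.28 and -0.18 by its brightest probe (-0.47 ± 0.15, adjusted p = 0.0277). Its other 2 probes gave 0.51 and 0.55, and its brightest probe gave 0.75 in Cy5 alone with a Cy3 difference of 1.17, so the sign for Rsad2 depends on the probe and on the reference. Irf7, Psmb8 and Psmb9 did not pass here, with differences of -0.00069, -0.089 and -0.38. Cell type markers moved here too. Of 9 T and NK cell markers Nkg7 (0.74) and Cd8a (0.31) were higher and Klrb1c lower (-0.67), of 4 neutrophil markers S100a8 and S100a9 were higher and Retnlg lower, and of 6 endothelial markers Lyve1 was higher (1.40) and Fcgr2b and Pecam1 lower. Cd79a, of 4 B cell markers, was lower (-1.21), as was Csf1r, of 6 Kupffer cell markers (-0.40), and their part in the result was not tested. Leaving out multiple-binge replicate 4 left Ifih1 as the only call, and without pair-fed replicate 2, 3 or 4 the count was 2.

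The multiple-binge livers fell apart for several members. Ifit1 was at -0.36, 0.97, -0.43 and 0.85 in them, against 0.46, 0.54, 0.28 and 0.42 in pair-fed 8-week livers and 0.44, 0.46, 0.52, 0.35 and 0.39 after 8 weeks of ethanol, and its SD was 0.75 against 0.11 and 0.064. Ifit1 was singled out after its values were seen. Replicates 2 and 4 were the highest of the arrays measured for 15 of 30 and 16 of 32 members. Replicates 1 and 3 were the lowest for 15 of 31 and 15 of 33, and the share over all genes was not counted. The cause of this split was not tested. Replicates 1 and 2 share slide 10 and replicates 3 and 4 share slide 11, so each slide held a high and a low array. Gbp3 did not vary in this way, at 0.20, 0.23, 0.20 and 0.16. Genes outside the members split as well. On the 4 arrays in order, the mean of 2 hepatocyte markers was 1.07, 0.61, 1.11 and 0.40. That of 5 endothelial markers was -0.18, 0.11, -0.15 and 0.067. The mean of 3 B cell markers did not split so, at -0.29, -0.33, -0.39 and -0.33.

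The brightest members of the remaining classes showed no call. Oas1a, the enzyme that makes the activator of RNase L, was at 0.45, 0.91, 0.32 and -0.15 in pair-fed 8-week livers and at 0.59, -0.046, -0.19, -0.23 and 0.17 after ethanol with a binge, and it could not be tested at 10 days, where it was measured on 1 array per group. Iigp1, a GTPase that attacks vacuoles of pathogens, spread from -0.95 to 0.75 over the 5 single-binge arrays of the 8-week diet, with 0.65, -0.86, 0.29, -0.95 and 0.75. Members not called in any comparison by the probe used were Dhx58, Irf1, Irf9, Oas1a, Oas2, Ifit1, Cmpk2, Eif2ak2, Ifi44, Parp14, Igtp and Iigp1. Parp14 was read by its brightest probe, and its other 2 probes were lower after 8 weeks with a single binge than in pair-fed livers, at -0.39 and -0.36, and passed. Of these 2 the first was higher after multiple binges than after a single binge, at 0.68 (adjusted p = 0.000121 in limma over all probes). In the same fit the other probe of Irf1 passed at -0.44 for a single binge against ethanol alone and at 0.64 for multiple binges against a single binge. A second probe of Cmpk2 passed at 0.51 for multiple against a single binge, and a second probe of Irf9 at -0.44 for multiple binges against pair-fed livers.

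Other genes of the pathway were counted by list in the comparison of 8 weeks with a single binge against pair-fed livers, where 15.5% of all genes passed. Among interferon ligands, receptors and signalling genes 5 of 23 were higher and 1 lower (limma), 26.1% in all, with a median of 0.11. The higher ones included the adaptor Ticam1 (0.54 ± 0.13, adjusted p = 0.00505) and the kinase Ikbke (0.38 ± 0.11, 0.0206) and the receptor chain Ifngr1 (0.43 ± 0.13, 0.0211), and Irf8 was the lower one (-0.34 ± 0.085, 0.00694). Among antigen-presentation genes 5 of 15 were lower and 0 higher, 33.3%, with a median of -0.26: these were the third immunoproteasome subunit Psmb10 (-0.69 ± 0.13), the proteasome activator Psme2 (-0.48 ± 0.10), the chemokine Cxcl10 (-0.57 ± 0.13), the MHC class II gene H2-Aa (-0.93 ± 0.24) and Cxcl9 (-0.47 ± 0.16). Of 30 other interferon-induced genes 4 were lower and 2 higher, 20.0% and near the share of all genes, with a median of -0.053, led by Nmi (-0.62 ± 0.10) and Gbp6 (-0.66 ± 0.17) on the lower and Ifitm2 (0.60 ± 0.17) on the higher side. Against ethanol without a binge, where 15.6% of all genes passed, the same lists gave 6 higher and 0 lower of 24 (25.0%), 0 higher and 3 lower of 15 (20.0%), and 2 higher and 2 lower of 31 (12.9%). Psmb10 (-0.52 ± 0.12) and Psme2 (-0.43 ± 0.095) were again among the lower, and Ifngr1 (0.50 ± 0.12) among the higher. After multiple binges 6 of 14 antigen-presentation genes were higher than after a single binge and 0 lower, 42.9% where 30.0% of all genes passed, with a median of 0.39, led by Tapbp (0.56 ± 0.085) and Cxcl10 (0.76 ± 0.13). Scan and group cannot be told apart here, and the median was 0.077 in Cy5 alone. Against pair-fed livers 1 of 14 passed (7.14%, where 20.8% of all genes passed), with a median of -0.017. The other lists gave 2 higher and 4 lower of 24 signalling genes (25.0%) and 6 higher and 3 lower of 28 other genes (32.1%) against a single binge. At 10 days Ikbke (0.79 ± 0.13, adjusted p = 0.000516) and Jak1 (0.37 ± 0.10, adjusted p = 0.0359) were higher among 23 signalling genes (8.70%, where 6.94% of all genes passed), and 0 of 15 and 0 of 30 genes of the other lists passed in limma, with 3 and 4 at an unadjusted p under 0.05.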

How the data were processed

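Liver RNA (Cy5) was hybridised with a common mouse reference RNA (Cy3) on 24 2-colour Agilent arrays, on 11 slides in 3 scans. Median signal intensity and local background per spot were read from the deposited scanner output, made with Agilent Feature Extraction 11.5.1.1 per the file headers. The deposited log10 ratio of the scanner software, dye-normalized per the file headers, served as an alternative, as did the authors' deposited table, which holds log2 ratios. The genome build was not used, and names come from RefSeq's GRCm38.p6 table.

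Spots marked by the software (1.34% to 7.64%) were left out. Background was corrected by normexp with an offset of 50, followed by loess within each array and no scaling between arrays. Median intensities were 95.5 to 247 in Cy5 and 161.5 to 505 in Cy3, and the number of arrays limits the precision. A probe was kept where 3 or more arrays called its Cy5 signal well above background, which left 36620 of 41174. Of these 26002 had 1 gene symbol, and each gene took its brightest probe among those with 2 or more values in every group.

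All 24 arrays were fitted together in limma 3.58.1 (R 4.3.3), with Benjamini-Hochberg adjustment over all genes and a threshold of 0.05. A comparison needed 2 arrays in each group. Errors after ± are SE for differences. The steps were tested on simulated data.

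Arrays are given singly for up to 3 called members per direction and comparison with the lowest adjusted p, for 2 members where none was called, and for the brightest member of each role. The members and lists were chosen with earlier results of these data known. The alternatives were fixed beforehand, except leaving out slide 5 and equal spread between arrays, which were chosen after seeing the data. One gene of the signalling list is not reported here.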

Additional observations from a re-analysis of the deposited data

Results flagged for a closer look

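Single arrays stood far from the rest of their group, by Dixon's ratio, in 5 of 126 member and group combinations (3.97%), and chance gives about 1 in 20. In pair-fed 8-week replicate 1 Oasl1 was at 0.33, against -0.44 to -0.32 on the other arrays, and Rtp4 was at 0.83, against -0.093 to -0.0051. In ethanol 8-week replicate 5 Igtp was at -1.37, against -0.072 to 0.35, and Iigp1 at -0.93, against -0.39 to -0.23. In 8-week single-binge replicate 4 Igtp was at -1.18, against -0.51 to -0.30. These 3 arrays share slide 5.

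The effect of ethanol with a binge differed between the diets of 8 weeks and 10 days, by the interaction in limma, for Tap1 (-2.07), Psmb8 (-1.08) and Stat2 (-0.95).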

How the results depend on the processing

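The 43 results for single members were refitted 1012 times under the alternatives: 833 fits kept direction and side of the threshold, 169 no longer passed, 2 newly passed and 8 changed sign, and 13 results never changed. Rsad2 changed sign with the mean of its probes (0.20 for multiple binges against pair-fed, 0.041 against a single binge). In Cy5 alone the sign changed for Ifih1 (0.55), Tap1 (-0.25) and Rsad2 (0.75) against pair-fed, and for Rsad2 (0.53), Psmb9 (-0.0071) and Zbp1 (-0.46) against a single binge. The larger moves in the counts of members called were as follows, not all smaller ones are listed, and the cause was not tested. For 10 days with a binge, 2 became 1 with median centring and 1 with the deposited values. For 8 weeks of ethanol, 0 became 1 with array weights. For 8 weeks with a binge against pair-fed, 9 became 5 with median centring and 12 with the scanner log ratio or the deposited values. Against ethanol alone 4 became 2 with equal spread. For multiple binges against pair-fed, 5 became 3 with the scanner log ratio, the deposited values, the compared groups alone or equal spread, and 16 in Cy5 alone. Median centring gave 6, of which 2 were among the 5. For multiple binges against a single binge 17 became 9 with median centring, which moved the median of all genes to -0.14 (-0.12 against pair-fed). In Cy5 alone the count was 22, of which 12 were among the 17. For the pair-fed groups 1 became 2 with marked spots kept, 6 in Cy5 alone, and 0 without slide 5 or with equal spread. For the interaction 3 became 1 with median centring, slide as a fixed block, Cy5 alone or equal spread. Without slide 5 the count became 5 for a single binge against ethanol alone, with Gbp3 new. It became 6 for multiple binges against pair-fed, with Gbp2 new, and 16 against a single binge, with Trim21 lost. The interaction kept 3 calls, with Usp18 in place of Stat2. Leaving out 1 array at a time gave 2 to 3 calls for 10 days, 0 to 1 for 8 weeks of ethanol (1 without pair-fed replicate 4), 6 to 11 and 3 to 5 for the single binge against pair-fed and ethanol, 1 to 5 and 9 to 18 for multiple binges against pair-fed and a single binge, 0 to 1 for the pair-fed groups and 2 to 3 for the interaction. Replicate numbers were not treated as pairs, as no comparison had every same-numbered correlation over 0.1. With 3 to 5 such pairs per comparison, some on 1 slide, this rule cannot exclude pairing. At 10 days the median r was 0.13 for same-numbered arrays and -0.085 for other pairs. With the replicate number as a block the counts were 2, 0, 8, 4, 5, 14, 1 and 2, in the order above. Scaling by Aquantile leaves ratios unchanged by construction. Slide as a fixed block could not be fitted for multiple binges or between the pair-fed groups, which share no slide.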
